A study of Mus musculus with 24 samples.

Results

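A set of 8 mouse genes made by mast cells was followed in epididymal white adipose tissue (eWAT): the granule proteases *Cpa3*, *Tpsb2*, *Cma1* and *Mcpt4*, the receptors *Kit* and *Ms4a2*, the histamine-forming enzyme *Hdc* and the serotonin transporter *Slc6a4*. They are 8 of the 16730 genes in the deposited tables, and all 8 were present and passed the filter on low counts. *Slc6a4* was selected on the comparison of high-fat diet (HFD) with chow in *Lama4* AKO mice, where its p-value ranked 3 of 15020 genes, and the other 7 were chosen as mast cell genes with results of that comparison known. Values of that comparison, and of the diet-by-genotype difference that contains it, are therefore given as a description only, without a test.

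The tissue came from 24 male mice, which formed 4 groups of 6 by genotype (*Lama4* fl/fl or *Lama4* AKO) and by diet (chow or HFD). Chow (5015 in the labels) or the HFD, with 45% fat, was fed for 20 weeks, and tissue was collected at 24 to 26 weeks of age. The fl/fl mice were littermates that also carry *Lama4* with loxP sites around exon 3, and the AKO mice add a Cre driven by the adiponectin promoter, which is active in adipocytes, so mast cells are not its target in either genotype. RNA was measured by QuantSeq, which reads 1 tag near the 3′ end of each transcript, so that levels do not scale with transcript length and are given as CPM, the counts of a gene after each library is scaled to 1 common total.

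Mast cells are resident immune cells that store proteases, histamine and, in rodents, serotonin in granules and release them when the high-affinity IgE receptor is crosslinked. They depend on the KIT receptor and its ligand, stem cell factor, for survival. In the epididymal fat of obese mice they are known to accumulate, and mature tissue mast cells are best recognised by their granule proteases. In bulk RNA, fewer cells of a type and less RNA per cell cannot be told apart.

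Libraries held 5579590 to 18764516 counts, and principal component 1 took 45.9% of the variance of log2 CPM. HFD-fed fl/fl replicates 4 and 6 lay at -76.1 and -60.5 on it, and the other HFD-fed mice of both genotypes between -9.76 and 73.5. Chow-fed mice ran from -91.8 to 46.8. HFD-fed fl/fl replicate 3 (-9.76) and HFD-fed AKO replicate 6 (0.856) thus also lay within the chow-fed range. HFD-fed fl/fl replicates 4 and 6 held 50217 and 42530 CPM summed over 12 adipocyte markers, against 9386 to 25696 in the other HFD-fed mice. The median *Lama4* level was 91.1 CPM in chow-fed fl/fl mice, 114 in chow-fed AKO mice, 79.8 in HFD-fed fl/fl mice and 44.3 in HFD-fed AKO mice, and in edgeR's quasi-likelihood test neither genotype comparison met the call criteria (adjusted p = 0.974 on chow and 0.338 on HFD). The 3′ tags lie outside the deleted exon, so *Lama4* counts do not check the genotype labels. By quantitative PCR the study reported lower *Lama4* in eWAT of chow-fed AKO mice than of controls, a drop that these counts do not show. The reason for this difference was not tested.

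On the GRCm38 genome *Cpa3* lies at chr3:20215620-20242181, *Tpsb2* at chr17:25366305-25369098, *Kit* at chr5:75574916-75656722, *Ms4a2* at chr19:11615523-11623719, *Hdc* at chr2:126593667-126619299, *Slc6a4* at chr11:76998603-77032340, and the protease genes *Cma1* and *Mcpt4*, on the same chromosome, at chr14:55941451-55944675 and chr14:56059629-56062313. Because most of them varied together between mice, the 250 bases before the start that RefSeq (GRCm38.p6) gives each gene were read, for the 7 of the 8 genes with such a promoter, all but *Tpsb2*. The RefSeq start lies 621 bases downstream of the end printed above for *Hdc*, so its stretch falls inside that span, and 71 or 75 bases downstream for *Kit*; for the other 5 genes it lies within 6 bases. GATA factors, of which GATA2 is required by mast cells, bind the letters AGATAA and TGATAA, and also AGATAG and TGATAG, on either strand. One of these stood in 6 of the 7 promoters, all but *Kit*, against 26.5% of all 32851 mouse promoters of the same length. The 6 promoters are shown 5′ to 3′ in the direction of transcription, with every match in capitals; a match on the other strand appears as its reverse complement.
Cpa3, chr3:20242182-20242431, minus strand: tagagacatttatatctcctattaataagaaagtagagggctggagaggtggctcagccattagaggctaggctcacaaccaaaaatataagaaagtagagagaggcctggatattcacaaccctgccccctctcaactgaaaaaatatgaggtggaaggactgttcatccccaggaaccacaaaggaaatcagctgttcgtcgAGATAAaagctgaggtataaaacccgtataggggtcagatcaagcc
Cma1, chr14:55944676-55944925, minus strand: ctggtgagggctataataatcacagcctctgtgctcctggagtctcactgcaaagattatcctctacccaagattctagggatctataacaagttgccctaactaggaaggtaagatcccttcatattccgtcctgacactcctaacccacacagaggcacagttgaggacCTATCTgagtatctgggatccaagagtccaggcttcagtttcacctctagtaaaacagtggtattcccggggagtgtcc
Mcpt4, chr14:56062311-56062560, minus strand: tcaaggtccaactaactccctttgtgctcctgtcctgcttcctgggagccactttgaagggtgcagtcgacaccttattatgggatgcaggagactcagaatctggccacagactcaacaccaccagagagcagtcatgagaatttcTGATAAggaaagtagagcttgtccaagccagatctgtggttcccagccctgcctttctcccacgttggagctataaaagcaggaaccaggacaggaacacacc
Ms4a2, chr19:11623720-11623969, minus strand: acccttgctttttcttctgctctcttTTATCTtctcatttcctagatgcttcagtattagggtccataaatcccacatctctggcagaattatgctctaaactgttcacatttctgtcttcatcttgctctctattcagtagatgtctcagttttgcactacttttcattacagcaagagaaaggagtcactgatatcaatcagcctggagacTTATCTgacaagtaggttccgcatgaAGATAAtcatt
Hdc, chr2:126618679-126618928, minus strand: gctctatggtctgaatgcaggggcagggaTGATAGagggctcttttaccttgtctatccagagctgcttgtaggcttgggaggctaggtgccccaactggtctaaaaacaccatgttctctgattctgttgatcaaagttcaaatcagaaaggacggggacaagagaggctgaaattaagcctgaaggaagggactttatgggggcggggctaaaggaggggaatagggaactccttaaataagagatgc
Slc6a4, chr11:76998347-76998596, plus strand: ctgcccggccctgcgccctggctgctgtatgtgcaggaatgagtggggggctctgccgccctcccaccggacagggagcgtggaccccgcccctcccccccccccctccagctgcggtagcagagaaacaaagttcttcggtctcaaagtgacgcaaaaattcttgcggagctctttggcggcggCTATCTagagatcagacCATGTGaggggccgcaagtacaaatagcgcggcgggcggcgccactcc
The match in *Cpa3* ended 41 bases before the start, that in *Cma1* 74 and that in *Mcpt4* 98 bases before it, while *Ms4a2* held 3 matches and *Hdc* a single one 216 bases before its RefSeq start. *Slc6a4* held AGATAG on the minus strand 60 bases before its start. Of the letters bound by MITF, a mast cell transcription factor, CACATG was found only in *Slc6a4* among these 7 promoters (CATGTG in capitals, on the minus strand, 43 bases before the start; 12.3% of all promoters), and CACGTG in none of the 7 (6.02% of all promoters). The matches are a description of these letters and were not tested as binding sites.

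The granule proteases were the most abundant of the 8 genes and varied the most between mice of 1 group. *Cpa3*, the mast cell carboxypeptidase, had a lowest, median and highest level of 13.5, 80.0 and 171 CPM in chow-fed fl/fl mice and of 13.8, 204 and 540 CPM in HFD-fed fl/fl mice. In chow-fed AKO mice these were 5.59, 14.2 and 120 CPM, and in HFD-fed AKO mice 164, 425 and 482 CPM. The diets overlapped in fl/fl mice, in which HFD-fed replicates 4 and 6 held 14.0 and 13.8 CPM, and did not overlap in AKO mice.

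*Tpsb2*, a tryptase, reached 942 CPM, the highest level of any of the 8 genes. Its median was 67.9 CPM in chow-fed fl/fl mice (23.1 to 186), 310 in HFD-fed fl/fl mice (15.9 to 942), 19.3 in chow-fed AKO mice (13.4 to 170) and 606 in HFD-fed AKO mice (218 to 831). *Cma1*, a protease of connective tissue mast cells, had medians of 50.6, 161, 10.1 and 312 CPM in the same order of groups. *Mcpt4*, a chymase of the same cells, had medians of 24.5, 113, 5.46 and 170 CPM. For each of these proteases, the same 4 of 6 chow-fed AKO mice (replicates 1 to 4) lay below the other 2, and the same HFD-fed fl/fl mice (replicates 4 and 6) lay below the other 4. Chow-fed fl/fl replicate 1 was likewise the lowest of its group in each, with 13.5 CPM of *Cpa3*, 23.1 of *Tpsb2*, 12.2 of *Cma1* and 4.88 of *Mcpt4*. Part of the 3′ end is shared with another gene for *Cma1* (12.4% of 50-base stretches in the last 500 bases, with *Gm48934*) and for *Mcpt4* (12.9%, with *Cma2* and *Mcpt9*), so a few of their tags could belong elsewhere.

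The receptors behaved unlike each other. *Ms4a2*, the beta chain of the IgE receptor, followed the proteases at a lower level: its median was 1.69 CPM in chow-fed fl/fl mice (0.305 to 4.08), 5.62 in HFD-fed fl/fl mice (0.149 to 15.1), 0.669 in chow-fed AKO mice and 10.7 in HFD-fed AKO mice (4.42 to 14.4). Chow-fed AKO replicate 4 had a count of 0, which allows up to 3 counts, and the highest mouse of that group had 2.68 CPM. *Kit*, the receptor for stem cell factor, ranged from 3.04 to 5.88 CPM in chow-fed fl/fl mice and from 6.73 to 16.1 CPM in HFD-fed fl/fl mice, without overlap. In AKO mice it overlapped between diets, with 4.10 to 12.1 CPM on chow and 11.4 to 20.8 CPM on HFD. HFD-fed fl/fl replicates 4 and 6, which were low in all proteases, had 9.33 and 6.92 CPM of *Kit*, above all chow-fed fl/fl mice.

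*Hdc*, which makes histamine from histidine, and *Slc6a4*, which takes serotonin up into the cell, were low in abundance. *Hdc* had a median of 3.87 CPM in chow-fed fl/fl mice (2.89 to 9.13), 12.5 in HFD-fed fl/fl mice (2.31 to 33.9), 3.15 in chow-fed AKO mice (1.20 to 6.73) and 13.5 in HFD-fed AKO mice (6.63 to 16.4), so that the diets overlapped in both genotypes. *Slc6a4* was even among chow-fed fl/fl mice, at 1.52, 1.70, 1.68, 1.3, 1.92 and 1.36 CPM in replicates 1 to 6. In HFD-fed fl/fl mice it was 8.54, 8.09, 3.53, 1.33, 3.64 and 1.04 CPM. Of these 6 mice, 4 lay above all chow-fed fl/fl mice, and replicates 4 and 6 lay within or below them. Chow-fed AKO mice had 1.36, 1.16, 0.466, 0.665, 1.34 and 2.66 CPM of *Slc6a4*, and HFD-fed AKO mice had 8.52, 9.61, 7.35, 10.2, 13.0 and 3.62 CPM, without overlap. The gene overlaps *Gm12343* on the opposite strand, and whether counting used the strand is not given in the sources used here.

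**Figure D1:**
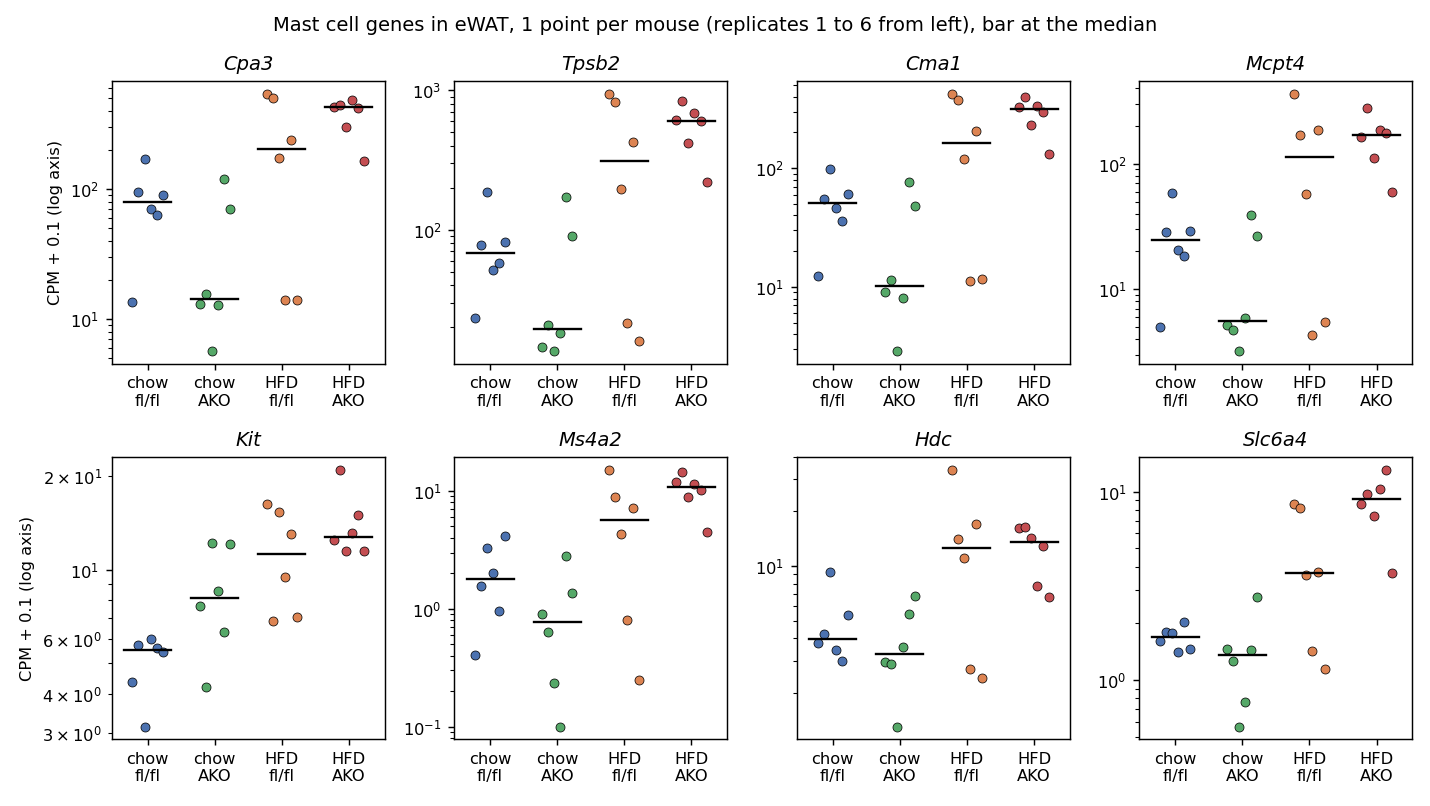
Levels of the 8 genes in each of the 24 mice, as CPM plus 0.1 on a log axis, with 1 point per mouse and a bar at the group median. In all genes but *Kit*, HFD-fed fl/fl replicates 4 and 6 lie within or below the range of chow-fed fl/fl mice, as for *Cpa3* at 14.0 and 13.8 CPM. In *Kit*, at 9.33 and 6.92 CPM, they lie above that range but within the range of chow-fed AKO mice.

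Together the 8 genes took a median of 0.0231% of all counts in chow-fed fl/fl mice, 0.00579% in chow-fed AKO mice, 0.0879% in HFD-fed fl/fl mice and 0.164% in HFD-fed AKO mice. The range within HFD-fed fl/fl mice, from 0.00556% to 0.23%, was wider than in HFD-fed AKO mice, from 0.062% to 0.21%. The within-group standard deviation of log2 CPM was 1.62 for *Cpa3*, 1.62 for *Tpsb2*, 1.59 for *Cma1*, 1.70 for *Mcpt4* and 1.5 for *Ms4a2*, above at least 99.1% of the 15020 genes tested, whose median was 0.42. It was 0.95 for *Hdc*, 0.78 for *Slc6a4* and 0.47 for *Kit*.

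In fl/fl mice, which took no part in the choice of *Slc6a4*, only *Kit* of the 8 genes met the call criteria between diets. *Kit* was 2.26-fold higher on HFD (log2 fold change 1.18, standard error 0.26), with a nominal p of 0.000168 and an adjusted p of 0.275 in edgeR's quasi-likelihood test. Genes were called when they differed by 1.5-fold or more, had a nominal p no higher than 0.001 and averaged 2 CPM or more in the higher group, and 0.133% of the 15020 genes were called as higher. *Kit* was also the only one of the 8 for which every HFD-fed fl/fl mouse lay above every chow-fed fl/fl mouse, which held for 0.146% of all genes. No gene of the 15020 reached an adjusted p of 0.05 in this comparison with edgeR, and 1390 had a nominal p under 0.05 (9.25%).

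The other 7 genes did not meet the criteria in fl/fl mice, and with edgeR they had larger estimates and larger standard errors than *Kit*. The log2 fold change was 2.34 (standard error 0.81, adjusted p = 0.424) for *Tpsb2*, 2.29 (0.82, adjusted p = 0.436) for *Mcpt4*, 1.89 (0.77, adjusted p = 0.476) for *Cma1* and 1.55 (0.77, adjusted p = 0.552) for *Cpa3*. For *Ms4a2* it was 1.61 (standard error 0.73, adjusted p = 0.506) and for *Hdc* 1.51 (0.50, adjusted p = 0.424). *Slc6a4* differed by 1.46 (standard error 0.44; 95% interval 0.55 to 2.38), with a nominal p of 0.00294 and an adjusted p of 0.424. The median log2 fold change of the 8 genes was 1.58, against 0.02 over all genes tested. With limma-voom the estimates were lower: 1.31 for *Tpsb2* (2.48-fold, against 5.07-fold with edgeR), 1.20 for *Mcpt4*, 1.01 for *Cma1*, 0.74 for *Cpa3*, 0.96 for *Ms4a2*, 1.11 for *Hdc* and 1.1 for *Slc6a4*, of which only those of *Tpsb2* and *Mcpt4* lay above the 1.12 of *Kit*. All 8 estimates were above 0 in both fits, but the genes follow the same mice and are not independent of each other.

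Which fl/fl mice enter decides how many of the 8 genes are called. The study left out outlying mice that its text does not name, and an earlier analysis of these data inferred them to be chow-fed fl/fl replicate 3, chow-fed AKO replicate 5 and HFD-fed fl/fl replicates 3, 4 and 6. Without these 5 libraries, 7 of the 8 genes were called as higher on HFD in fl/fl mice, where 5.59% of 14863 genes were. The 7 were all but *Kit*, whose log2 fold change was 1.12 with a nominal p of 0.00148. The log2 fold changes of the 7 ran from 2.06 for *Slc6a4* (adjusted p = 0.00208 in edgeR) to 3.60 for *Tpsb2* (adjusted p = 0.000359). The HFD-fed fl/fl mice left out have the lowest 3 levels of their group in each of these 7 genes. The chow-fed mice left out have the highest *Cpa3* level of each genotype. Leaving these libraries out thus widens the fl/fl diet difference of all 7 by construction, and nothing is read from the 7 calls or their adjusted p-values. Without HFD-fed fl/fl replicate 4 alone, or replicate 6 alone, 2 of the 8 genes were called, *Kit* and *Slc6a4*. In these fits 0.246% and 0.28% of all genes were called as higher. Both mice are the lowest of their group in *Slc6a4*, at 1.33 and 1.04 CPM. Leaving either out widens its diet difference by construction, and nothing is read from its call.

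The comparison in AKO mice is the one on which *Slc6a4* was selected, and its values are given as a description. The estimates were above those of fl/fl mice for all of these genes but *Kit*, which had the lower estimate in AKO mice. The log2 fold change from chow to HFD was 2.77 (standard error 0.46) for *Slc6a4*, or 6.80-fold. It was 3.25 (0.83) for *Cpa3*, 3.38 (0.84) for *Tpsb2*, 3.49 (0.82) for *Cma1*, 3.55 (0.87) for *Mcpt4* and 3.65 (0.82) for *Ms4a2*. *Hdc* had 1.74 (standard error 0.51) and *Kit* 0.72 (0.26). By the criteria above, 6 of the 8 genes were past them (all but *Kit* and *Hdc*), where 1.19% of all genes were called as higher, and the same 6 had every HFD-fed mouse above every chow-fed mouse, as did 2.93% of all genes. Nothing is read from these shares, since this comparison chose the genes.

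**Figure D2:**
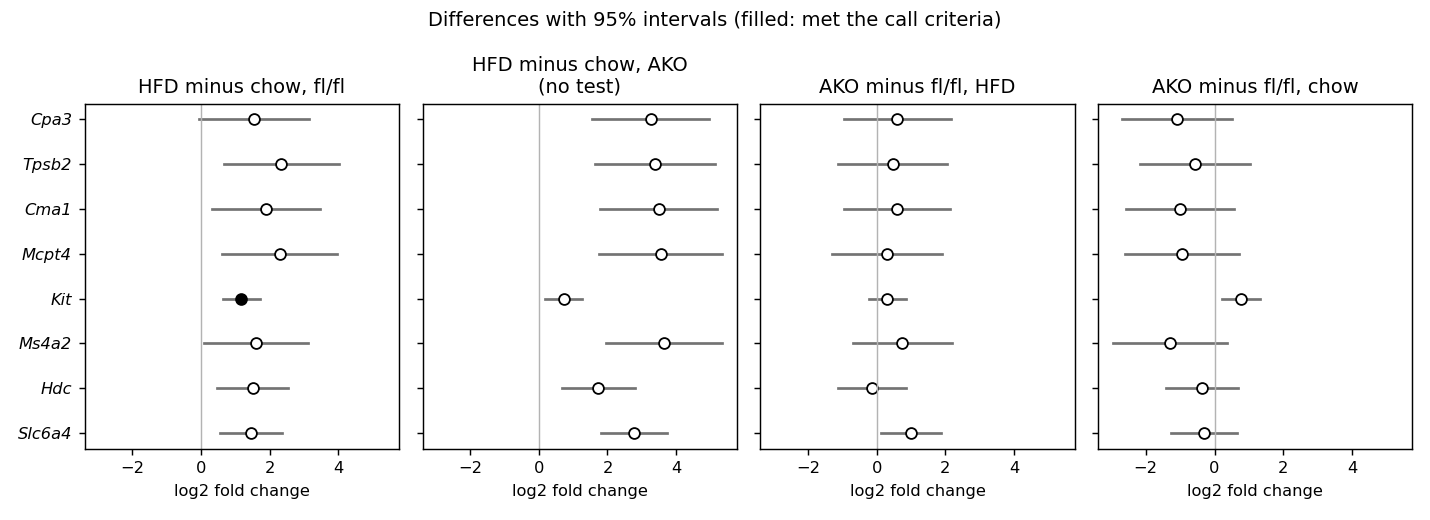
The log2 fold change of each gene (point) with its 95% interval (line) in the comparisons of diet within genotype and of genotype within diet; filled points met the call criteria, and the AKO diet panel is shown without a test. In fl/fl mice only *Kit*, at 1.18, is filled, and its interval is the narrowest of the 8.

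Comparing genotypes asks whether loss of *Lama4* from adipocytes moves these genes on either diet. On HFD none of the 8 met the criteria, where 0.16% of all genes did in either direction, and limma-voom and DESeq2 called 0 as well. With edgeR 1 of the 8, *Slc6a4*, had a nominal p under 0.05, as did 14.8% of all genes. *Slc6a4* had a median of 9.07 CPM in AKO and 3.58 CPM in fl/fl mice, and its AKO libraries were 0.99 higher on the log2 scale (standard error 0.42; 95% interval 0.12 to 1.86; adjusted p = 0.31). These AKO libraries are among those on which *Slc6a4* was selected, so its value is not independent of the choice. Without the 5 libraries it was 0.41 (95% interval -0.45 to 1.27). The log2 fold change was 0.60 for *Cpa3* (standard error 0.76, adjusted p = 0.698), *Cma1* had 0.59, *Tpsb2* 0.47, *Mcpt4* 0.31, *Ms4a2* 0.75, *Kit* 0.32 and *Hdc* -0.13. The 95% interval for *Cpa3* ran from -0.96 to 2.17, so that differences of either sign within it could not be told from 0 at this spread. The estimates moved in opposite directions under the alternatives. With limma-voom they were 1.66 for *Cpa3*, 1.67 for *Tpsb2*, 1.62 for *Cma1*, 1.56 for *Mcpt4*, 1.64 for *Ms4a2* (adjusted p = 0.396) and 1.23 for *Slc6a4*, 2.94-fold to 3.17-fold for the proteases. In that fit *Ms4a2* and *Slc6a4* had a nominal p under 0.05, for which the share of all genes was not counted. Without the 5 libraries the 4 proteases were lower in AKO than in fl/fl mice, at -0.15, -0.34, -0.18 and -0.53 for *Cpa3*, *Tpsb2*, *Cma1* and *Mcpt4*. That fit leaves out HFD-fed fl/fl replicates 3, 4 and 6, the lowest of their group in each protease and in *Slc6a4*. It lowers these genotype differences by construction.

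On chow none of the 8 met the criteria either, where 0.126% of all genes did, and limma-voom and DESeq2 called 0 as well. *Kit* alone had a nominal p under 0.05 with edgeR, as did 5.76% of all genes. Its median was 5.42 CPM in fl/fl and 7.99 CPM in AKO mice, a difference of 0.77 on the log2 scale (standard error 0.26, adjusted p = 0.768). The other 7 had estimates below 0, from -0.31 for *Slc6a4* (standard error 0.46, adjusted p = 0.959) to -1.29 for *Ms4a2* (0.81, adjusted p = 0.916). Without the 5 libraries *Cpa3* (-1.51), *Cma1* (-1.41), *Ms4a2* (-1.65) and *Mcpt4* (-1.17) also had a nominal p under 0.05, with adjusted p-values of 0.489 to 0.58 in edgeR. The share of all genes under that nominal p was not counted in this fit. Without chow-fed AKO replicate 5 alone the difference went from -1.09 to -1.84 for *Cpa3* and from -0.56 to -1.35 for *Tpsb2*. These chow-fed AKO libraries also took part in the choice of *Slc6a4*. The diet difference in AKO minus that in fl/fl mice, given as a description, was 2.04 (standard error 1.07) for *Ms4a2*, 1.70 (1.08) for *Cpa3*, 1.59 (1.06) for *Cma1*, 1.3 (0.63) for *Slc6a4*, 1.26 (1.11) for *Mcpt4*, 1.03 (1.09) for *Tpsb2*, 0.23 (0.70) for *Hdc* and -0.45 (0.37) for *Kit*.

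Around the group means, the genes fell into a tight set and *Kit*. Over the 24 mice, after each group's mean log2 CPM was subtracted, *Cpa3* and *Cma1* had a Pearson r of 0.99, and the 15 pairs among the proteases, *Ms4a2* and *Hdc* had an r of 0.82 to 0.99. The 6 pairs of these genes with *Slc6a4* had an r of 0.78 to 0.84, and the 7 pairs with *Kit* 0.15 to 0.28. In chow-fed fl/fl mice the standard deviation of log2 CPM was 0.19 for *Slc6a4* and 1.23 for *Cpa3*. The r of *Slc6a4* thus reflects mainly the other groups. The mice share library and depth within each point and lie in clusters far apart, so the values are a description. Without the 5 libraries named above the 3 ranges were 0.54 to 0.98, 0.59 to 0.75 and 0.06 to 0.51.

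**Figure D3:**
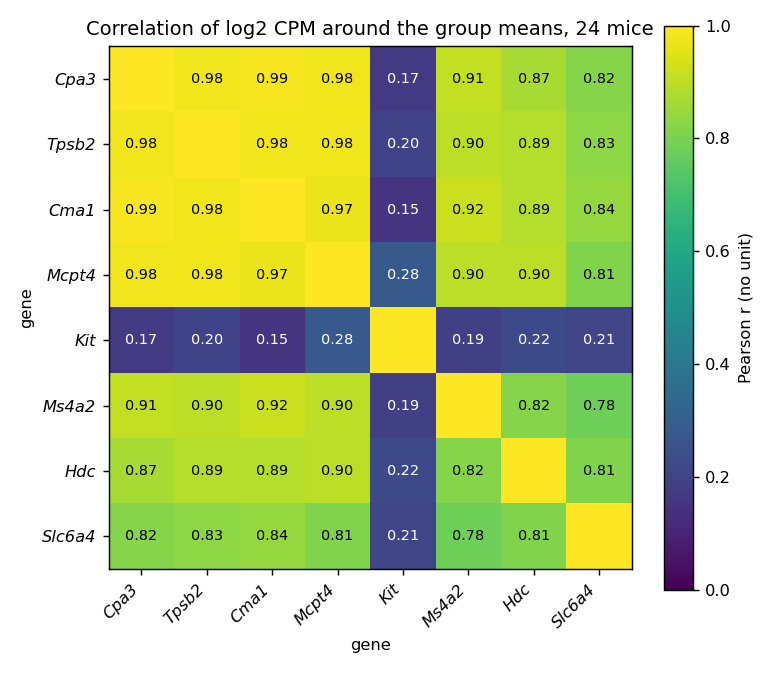
Pearson r between each pair of genes over the 24 mice, computed on log2 CPM after the mean of each group was subtracted, with the colour scale from 0 to 1. The row of *Kit* stays at 0.28 or below, while all other pairs lie at 0.78 or above.

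*Slc6a4* is not specific to mast cells, since serotonergic neurons, enterocytes and platelets also make the transporter. Ranked by r with *Slc6a4* among 15019 genes, *Cma1* had rank 5 (0.84), *Tpsb2* rank 6 (0.83), *Cpa3* rank 12 (0.82), *Mcpt4* rank 20, *Hdc* rank 21, *Ms4a2* rank 58 and *Kit* rank 5765. The 5 other genes with the highest r were *Col8a2* (0.85), a collagen chain, *Tph1* (0.85), the enzyme that starts serotonin synthesis outside the brain, *Hsd17b11* (0.84), *Pdlim4* (0.84) and *Aig1* (0.83). Without the 2 mice farthest from the median of *Slc6a4* these were 0.77 to 0.79.

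The ratio of *Slc6a4* to *Cpa3* asks whether the transporter moved by more than a general mast cell transcript. In fl/fl mice the median was 1.86 *Slc6a4* counts per 100 *Cpa3* counts on chow (1.0 to 11.6) and 1.84 on HFD (1.54 to 9.80). The highest ratio on each diet came from a mouse low in *Cpa3*, chow-fed replicate 1 (13.5 CPM) and HFD-fed replicate 4 (14.0 CPM). The mean log2 ratio differed by 0.29 (two-sided exact permutation test, p = 0.753; the smallest p it allows is 0.00216), a difference not larger than the spread between mice. The difference was 0.74 without chow-fed fl/fl replicate 1, which had the highest ratio of its group, -0.06 without HFD-fed fl/fl replicate 4 and -0.85 without the 5 libraries (exact permutation p = 0.107). In AKO mice the medians were 6.50 on chow and 2.20 on HFD, where all 6 mice lay between 2.0 and 3.09. The ratio of *Cma1* to *Cpa3* stayed between 50.3 and 90.3 per 100 in all 24 mice.

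**Figure D4:**
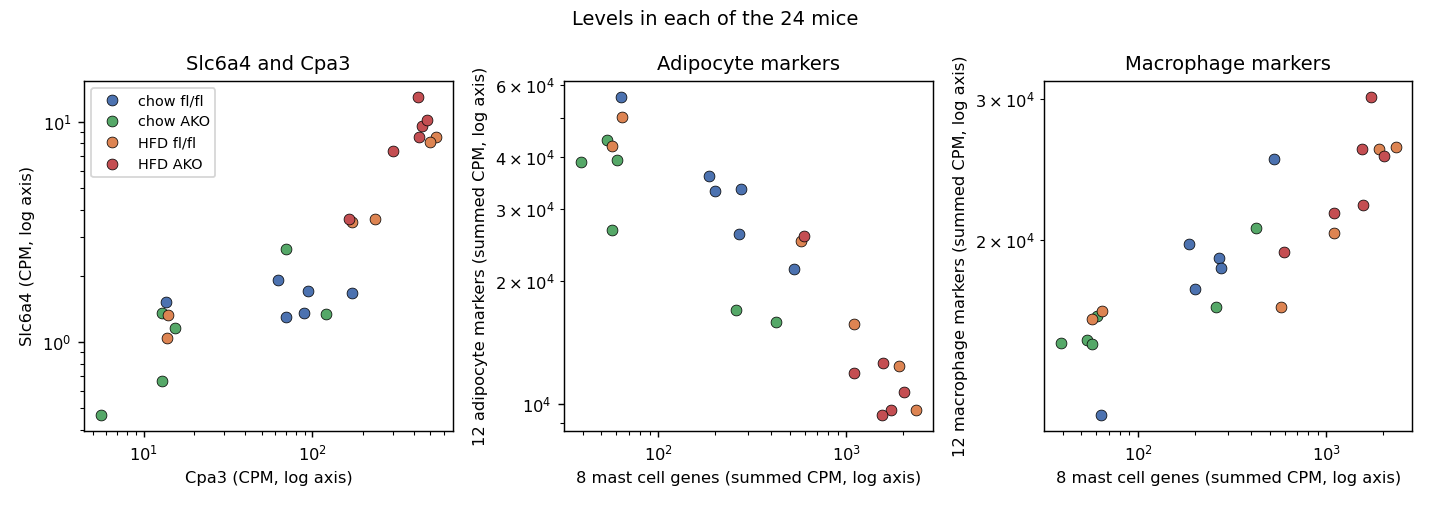
Levels in each of the 24 mice on log axes: *Slc6a4* against *Cpa3* (left), and the summed CPM of 12 adipocyte markers (middle) and 12 macrophage markers (right) against the summed CPM of the 8 mast cell genes. *Lpl* was the most abundant of the macrophage markers and weighs most in their sum. HFD-fed fl/fl replicates 4 and 6 held 64.6 and 57.2 CPM of the 8 genes and 50217 and 42530 CPM of adipocyte markers, while the HFD-fed AKO mice held 599 to 2014 CPM and 9386 to 25696 CPM.

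Other mast cell genes, from a list of 36 of which 28 were in the tables and 27 could be tested, were not called between diets in fl/fl mice. With edgeR 0 of the 27 were called and 9 had a nominal p under 0.05, against 9.25% of all genes, and their median log2 fold change was 0.59. *Tph1* had a median of 1.45 CPM on chow and 7.12 CPM on HFD in fl/fl mice (a log2 difference of 2.47 with a standard error of 0.78, adjusted p = 0.424), and 0.408 and 18.0 CPM in AKO mice. *Slc18a2*, the transporter that loads histamine and serotonin into granules, had medians of 1.32 and 4.45 CPM in fl/fl mice (a log2 difference of 1.79 with a standard error of 0.66, adjusted p = 0.437) and 0.383 and 6.81 CPM in AKO mice. *Fcer1a*, the IgE-binding chain of the receptor, had 3.45 and 9.45 CPM in fl/fl and 0.256 and 18.4 CPM in AKO mice, and *Gata2* had 6.00 and 8.19 CPM in fl/fl and 6.16 and 15.9 CPM in AKO mice. Not all of the list was higher on HFD. Its most abundant genes had fl/fl medians of 238 and 177 CPM (*Srgn*), 143 and 139 (*Ltc4s*) and 153 and 172 (*Hpgds*). In AKO mice these were 184 and 255, 204 and 99.1, and 81.5 and 155 CPM. Estimates were above 0 for 21 of the 27 in fl/fl and 22 in AKO mice. In AKO mice 14 of the 27 were past the criteria, all as higher on HFD, where 1.19% of all genes were, which is again a description.

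Of the 10 genes outside the 8 with the highest r to their mean, 6 were on that list of mast cell genes. They were *Mrgprb1* (0.96), *Slc18a2* (0.95), *Tph1* (0.95), *Tpsg1* (0.94), *Fcer1a* (0.94) and *Tpsab1* (0.94), and the others were *Plcl2* (0.95), *Atp8b5* (0.95), *Def6* (0.95) and *Plxdc2* (0.93). Of the 27 genes of the list that could be tested, 22 had an r above 0 and 5 below it. The 5 were the leukotriene C4 synthase gene *Ltc4s* (-0.87), *Stxbp6* (-0.85), *Maob*, which breaks down amines (-0.84), *Cited2* (-0.61) and *Rab27b* (-0.58). An r above 0 was common over all genes: *Cd200r3* of the list, at 0.68, ranked 2065 of 15012 genes, and *Mlph*, at 0.29, ranked 5465. *Mcpt1* and *Mcpt2*, proteases of mucosal mast cells, were not analysed here. Every gene analysed had at least 72 counts over the 24 libraries.

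In fl/fl mice *Kit* was the only gene called by edgeR on the lists of the serotonin and histamine pathways, of IgE receptor and KIT signalling and of mast cell growth and recruitment. For the AKO counts, given as a description, 1.19% of all genes were called as higher and 39.9% had a nominal p under 0.05. Of the serotonin list, 9 of 17 genes could be tested and 0 were called in fl/fl mice with edgeR, where 3 had a nominal p under 0.05 (*Tph1*, *Slc18a2* and *Slc6a4*); in AKO mice the same 3 were past the criteria. The monoamine oxidase *Maoa* had medians of 52.8 and 49.2 CPM on chow and HFD in fl/fl mice (log2 fold change -0.05, standard error 0.22, adjusted p = 0.966), and *Ddc*, which makes serotonin from its precursor, 0.594 and 0.576 CPM. Of the histamine list, 4 of 8 could be tested and 0 were called in fl/fl mice with edgeR, where 2 had a nominal p under 0.05 (*Hdc* and *Slc18a2*); in AKO mice *Slc18a2* was past the criteria. *Hnmt*, which inactivates histamine, differed by 0.31 on the log2 scale (standard error 0.29, adjusted p = 0.761). Among the 19 genes of IgE receptor and KIT signalling *Kit* alone was called in fl/fl mice, while *Fcer1g* (0.12), *Lyn* (-0.06) and *Syk* (0.20), which macrophages also make, had log2 fold changes near 0; in AKO mice *Fcer1a* and *Ms4a2* were past the criteria and 13 of the 19 had a nominal p under 0.05. Of 12 growth and recruitment genes 0 were called by edgeR in either genotype, with 4 at a nominal p under 0.05 in fl/fl and 2 in AKO mice; *Kitl*, the gene of stem cell factor, had medians of 76.4 and 56.0 CPM in fl/fl mice (a log2 difference of -0.38 with a standard error of 0.15, adjusted p = 0.47) and 68.1 and 52.5 CPM in AKO mice.

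Markers of other cells were followed in the same mice. Beside their counts, 9.25% of all genes had a nominal p under 0.05 between diets in fl/fl and 39.9% in AKO mice. The summed CPM of 12 adipocyte markers had medians of 33231 and 20309 on chow and HFD in fl/fl mice (21407 to 56187 and 9656 to 50217) and 32785 and 11289 in AKO mice (15841 to 44034 and 9386 to 25696), and 0 of the 12 were called by edgeR in fl/fl mice (0 at a nominal p under 0.05) and 1, *Lep*, in AKO mice (10 at a nominal p under 0.05). Over 12 macrophage markers the sums had medians of 18703 and 18456 CPM in fl/fl mice (12074 to 25246 and 15901 to 26081) and 15525 and 23779 CPM in AKO mice (14812 to 20671 and 19311 to 30163), with 0 called by edgeR in either and 0 and 8 at a nominal p under 0.05. *Lpl* weighs most in these sums, with medians of 10600 and 9040 CPM in fl/fl mice. Next came *Lyz2* with 4090 and 3480 CPM and *Gpnmb* with 1410 and 2890 CPM. Estimates were above 0 for 9 of the 12 in fl/fl mice (median log2 fold change 0.10) and 10 in AKO mice (1.18). Among 9 basophil genes, *Mcpt8* was not analysed here, and the other defining protease, *Prss34*, had medians of 1.08 and 3.35 CPM in fl/fl mice and 0.497 and 3.32 CPM in AKO mice; the 6 genes measured, which include *Fcer1a*, summed to 7.21 to 82.9 CPM over the 24 mice, with 0 called by edgeR in fl/fl mice (2 at a nominal p under 0.05) and 3 (*Prss34*, *Cd200r3* and *Fcer1a*) in AKO mice. The platelet list, of interest because platelets carry the serotonin transporter protein, had 9 of 14 genes in the tables, which summed to 236 to 744 and 185 to 415 CPM on chow and HFD in fl/fl mice and to 203 to 423 and 243 to 526 CPM in AKO mice. Its most abundant gene, *Pf4*, which weighs most in these sums, had medians of 577 and 255 CPM in fl/fl mice (log2 fold change -0.96, standard error 0.27, adjusted p = 0.399), and of the 8 genes tested 0 were called by edgeR in fl/fl mice (2 at a nominal p under 0.05). Most of the list went the other way from *Pf4*. Estimates were above 0 for 5 of the 8 in fl/fl mice (median log2 fold change 0.24) and 7 in AKO mice (0.57). *Ppbp* was the 1 gene of the list past the criteria in AKO mice, as lower on HFD. *Gp9*, which defines platelets, stayed at or below 0.624 CPM in every mouse. The part of these other cells in the differences of the mast cell genes was not tested.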

How the data were processed

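RNA of eWAT was read by QuantSeq with 50-base forward reads. The authors processed the reads with the Lexogen QuantSeq pipeline and deposited raw counts per gene and library (GRCm38 or mm10 per the labels); the deposited normalized table holds the same counts divided by 1 factor per library as a signal, and was used for symbols and positions only. Totals were 5579590 to 18764516 counts per library (median 13693204), and limits of a count of 0 (3 counts) cover counting error only, while intervals of fold changes include the spread between mice. Aligner settings and strand are not given in the sources used here.

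Genes reaching 1 CPM in 3 or more mice (15020 genes) were kept, and their counts were scaled by TMM and fitted with edgeR 4.0.16 (R 4.3.3; quasi-likelihood, 1 coefficient per group, all 24 libraries), and p-values were adjusted by Benjamini and Hochberg over all 15020. Group sizes of 6 are mice as labelled. Correlations used log2 CPM with a prior count of 2, and the ratio of *Slc6a4* to *Cpa3* used 0.5 added to each count. The 8 genes, the gene lists and the comparisons were chosen with earlier results of these data known, so no list is independent evidence. Named were the 8 genes, *Lama4*, from each list genes called in a described comparison or up to 3 of the most abundant, the 10 genes with the highest r to the mean of the 8 and the 5 with the highest r to *Slc6a4*; further list genes named in the text were chosen after their values were seen. Alternatives were limma-voom (limma 3.58.1), DESeq2 1.42.0, RLE size factors, no filter, filterByExpr, a fit of the 2 groups alone, a block for the replicate number, an adjusted p of at most 0.05, 5 libraries left out together, and each mouse left out.

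On simulated counts for the diet comparison in fl/fl mice (14719 genes, 100 changed 2-fold and 100 changed 4-fold), edgeR called 76 and 97 of the changed genes and 10 unchanged genes. The 60 pairs of libraries within groups differed by far more than counting error (chi-square of at least 6.07 per degree of freedom), so none was counted as a duplicate. Promoters came from RefSeq GRCm38.p6.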

Additional observations from a re-analysis of the deposited data

How the results depend on the processing

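The count of the 8 genes called between diets in fl/fl mice was 1 with edgeR and also with limma-voom, DESeq2, RLE size factors, no filter, filterByExpr and the 2 groups alone. In these fits 0.0483% to 0.293% of all genes were called as higher. The count was 0 with an adjusted p of at most 0.05 and 0 with the replicate block (*Kit* then had a log2 fold change of 1.15). It was 7 without the 5 libraries (5.59% of all genes), and 1 to 2 when each mouse was left out (0.0533% to 0.307%). In AKO mice the count of 6 became 3 with the replicate block (0.885% of all genes called as higher). It became 7 with DESeq2 (2.73%), with the 2 groups alone (2.62%) and without the 5 libraries (6.28%). With an adjusted p of at most 0.05 in edgeR it was 8, and 3382 of the 15020 genes reached that adjusted p at any fold change. When each mouse was left out the count ranged from 2 (without chow-fed AKO replicate 2) to 7, with 0.554% to 2.98% of all genes called as higher. It was 3 without chow-fed AKO replicate 1, 3 or 4 or HFD-fed AKO replicate 2. Nothing is read from these AKO counts, since this comparison chose the genes. The counts of 0 between genotypes held under every alternative run. Replicate numbers are shared between the groups in the labels, but nothing ties mice of 1 number together: deviations of same-numbered mice had correlations of -0.483 to 0.714, so the replicate block is given here only.

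Signs turned where estimates were small. Without the 5 libraries, the genotype difference on HFD was -0.15 for *Cpa3*, -0.34 for *Tpsb2*, -0.18 for *Cma1* and -0.53 for *Mcpt4*, the diet-by-genotype difference of *Hdc* was -0.6, and the *Slc6a4* to *Cpa3* ratio in fl/fl mice differed by -0.85. The HFD-fed fl/fl mice left out are the lowest of their group in these proteases, which lowers the genotype differences by construction. For *Hdc* between genotypes on HFD the value was 0.31 with limma-voom and 0.05 with the replicate block, and -0.32 to 0.43 when each mouse was left out (0.43 without HFD-fed fl/fl replicate 1). Leaving out each mouse gave -0.04 (without chow-fed fl/fl replicate 3) to 0.78 for the diet-by-genotype difference of *Hdc*, and -0.06 to 0.74 for the ratio. The fold changes between diets kept their direction in both genotypes for all 8 genes under every alternative run. The causes were not tested. *Slc6a4* and *Ms4a2* had the lowest levels of the 8 genes, and what their low counts add to the errors was not tested.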
